A study of Mus musculus with 63 samples.

Results

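Kidney macrophages (Macs) were sorted 14 days after a 7-day ureteric obstruction had been reversed, and their miRNAs were compared with those of Macs from sham-operated kidneys. The comparison rests on 8 of the 63 libraries of the series, 4 from sham and 4 from R-UUO (reversed unilateral ureteric obstruction), and covers every miRNA locus with enough counts in Macs to be tested, 457 of 2110. It addresses which differences from sham were still measured after reversal. All mice were male C57BL/6, 8 to 12 weeks old. Besides sham-operated mice there were UUO-2 and UUO-7 mice, obstructed for 2 and 7 days. In R-UUO the ureter was put back into the bladder on day 7 and the kidney taken 14 days later. Macs were gated as CD45+ F4/80hi cells of digested cortex. Per the study's methods, 5 mice were operated on per group, and the 4 sequenced were those with *Havcr1* (kidney injury molecule-1) nearest to the group mean, so the spread between libraries is that of selected mice. Endothelial cells (ECs), LTL+ proximal tubular (PT) cells and PDGFR-β+ cells of the same mice were sequenced too and serve here as a comparison.

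miRNAs are short RNAs cut from a hairpin, of which either arm (5p or 3p) can be loaded into Argonaute. Bases 2 to 8, the seed, pair with target mRNAs, so that miRNAs with the same seed share many predicted targets. In macrophages miR-155, miR-146, miR-147, miR-132 and miR-21 are known to be induced downstream of Toll-like receptors or NF-κB, and miR-223 and miR-142 mark cells of the blood lineages. miR-199a and miR-214 come from the *Dnm3os* transcript and, with miR-143 and miR-145, are known for fibroblasts and smooth muscle, while miR-192 and miR-194 are known for proximal tubule.

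The mature sequences below belong to the miRNAs that carry the main results. They are RefSeq entries of GRCm38.p6, 5′ to 3′, with the seed in capitals. The first group holds miRNAs with a rise that stood out by its size or by its abundance.

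miR-132-3p (chr11:75173723-75173744, plus strand): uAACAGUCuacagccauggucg
miR-212-3p (chr11:75173443-75173464, plus strand): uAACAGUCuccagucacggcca
miR-214-3p (chr1:162223438-162223459, plus strand): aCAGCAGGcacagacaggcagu
miR-199a-3p (chr1:162217883-162217904, plus strand): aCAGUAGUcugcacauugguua
miR-10a-5p (chr11:96317186-96317208, plus strand): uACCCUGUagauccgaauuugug
miR-10b-5p (chr2:74726074-74726096, plus strand): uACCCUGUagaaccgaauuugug

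miR-132-3p and miR-212-3p share a seed and lie in an intron of the noncoding gene *1700016P03Rik*. miR-214-3p and miR-199a-3p lie in an exon of *Dnm3os*. miR-10a-5p and miR-10b-5p also share a seed, and lie between genes on chromosome 11 and in an intron of *Hoxd4*. The second group shows pairs with the same seed of which 1 member rose and the other fell.

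miR-146a-5p (chr11:43374435-43374456, minus strand), lower: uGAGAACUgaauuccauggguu
miR-146b-5p (chr19:46342790-46342811, plus strand), higher: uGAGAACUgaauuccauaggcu
miR-27a-3p (chr8:84208727-84208747, plus strand), lower: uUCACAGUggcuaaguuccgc
miR-27b-3p (chr13:63300760-63300780, plus strand), higher: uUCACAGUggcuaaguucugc
miR-92a-3p (chr14:115044476-115044496, plus strand), lower: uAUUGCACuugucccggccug
miR-92b-3p (chr3:89227126-89227147, minus strand), higher: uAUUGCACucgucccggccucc
miR-99a-5p (chr16:77598940-77598961, plus strand), lower: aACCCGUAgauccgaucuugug
miR-100-5p (chr9:41531437-41531458, plus strand), higher: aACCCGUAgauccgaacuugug

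The third group holds falls that stood out by their size, and both arms of the miR-223 hairpin, called in opposite directions with all libraries in the fit.

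miR-101a-3p (chr4:101346957-101346977, minus strand): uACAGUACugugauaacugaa
miR-29c-3p (chr1:195037600-195037621, plus strand): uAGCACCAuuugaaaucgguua
miR-192-5p (chr19:6264857-6264877, plus strand): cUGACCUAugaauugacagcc
miR-223-3p (chrX:96242884-96242905, plus strand): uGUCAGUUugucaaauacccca
miR-223-5p (chrX:96242842-96242864, plus strand): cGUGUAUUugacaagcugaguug

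The 8 libraries held 1106651 to 6912556 counts, 2105184 to 6095639 in sham and 1106651 to 6912556 in R-UUO. The floor was set at 3 counts, which is 0.493 to 2.85 CPM (counts scaled to a library of 1e6) and covers counting error only. R-UUO replicate 5 was the shallowest. Of 10 values that stood apart from the other 3 of their group, sham replicate 4 carried 4 and R-UUO replicate 5 carried 3. Of each library's counts, 59.0% to 60.1% in sham and 62.6% to 64.6% in R-UUO fell on its 10 most abundant loci. Log2 CPM correlated at 0.969 to 0.983 between sham libraries, 0.959 to 0.989 between R-UUO libraries and 0.927 to 0.963 between the conditions. The leukocyte miRNAs miR-142a-5p and miR-223-3p go with the Mac label, though they mark blood lineages in general. On the scaling over all 63 libraries, miR-142a-5p stood at 36493 CPM in sham Macs against 33.8 (ECs), 79.8 (PT cells) and 71.4 (PDGFR-β+ cells). For miR-223-3p the sham level was 2095 CPM in Macs against 2.08, 4.88 and 15.6. miR-150-5p, of the same list, went the other way, with 3172 CPM in R-UUO ECs against 366 CPM in R-UUO Macs.

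Other cells' markers moved between the conditions in the same libraries. The 12 mesenchymal marker loci counted, 9 of them tested, together took 0.321% to 0.762% of the counts in sham and 0.961% to 1.41% in R-UUO. These ranges did not overlap, and no tested marker was at 0 in every sham library. The 8 proximal tubule marker loci counted, 3 of them tested, took 0.540% to 0.745% in sham and 0.156% to 0.370% in R-UUO. Endothelial markers (0.0511% to 0.483% and 0.119% to 0.393%), other epithelial markers (0.0794% to 0.107% and 0.0712% to 0.192%) and red cell markers (0.167% to 0.326% and 0.173% to 0.367%) overlapped. The part of other cells' RNA in the results below was not tested. In sorted bulk RNA, fewer cells of a type and less RNA per cell cannot be told apart.

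At 14 days after reversal the miRNA profile of Macs still differed from sham at 146 of the 457 loci tested, 31.9%, of which 98 were higher (21.4%) and 48 lower (10.5%). A call required a Benjamini-Hochberg adjusted p (FDR) of edgeR's quasi-likelihood test under 0.05 and a fold change over 1.5. Loci that share identical counts were counted separately, and 144 calls remained when they were counted once. In 117 of the 146 calls the 4 sham and 4 R-UUO libraries did not overlap, against 150 of all loci tested (32.8%). The higher loci together made up 15.3% to 18.0% of all counts in sham and 35.4% to 42.4% in R-UUO, and the lower loci 23.2% to 25.2% and 11.4% to 14.2%. Over 4-fold were 33 of the 98 rises and 2 of the 48 falls. The median log2 fold change of all loci was 0.12. Scaled by library size only, 87 loci were higher and 62 lower, and that median was 0.03, so the split depends on the scaling. For 65 loci the 95% interval of the change lay within 1.5-fold in either direction. p-values measure the spread between these mice.

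**Figure D1:**
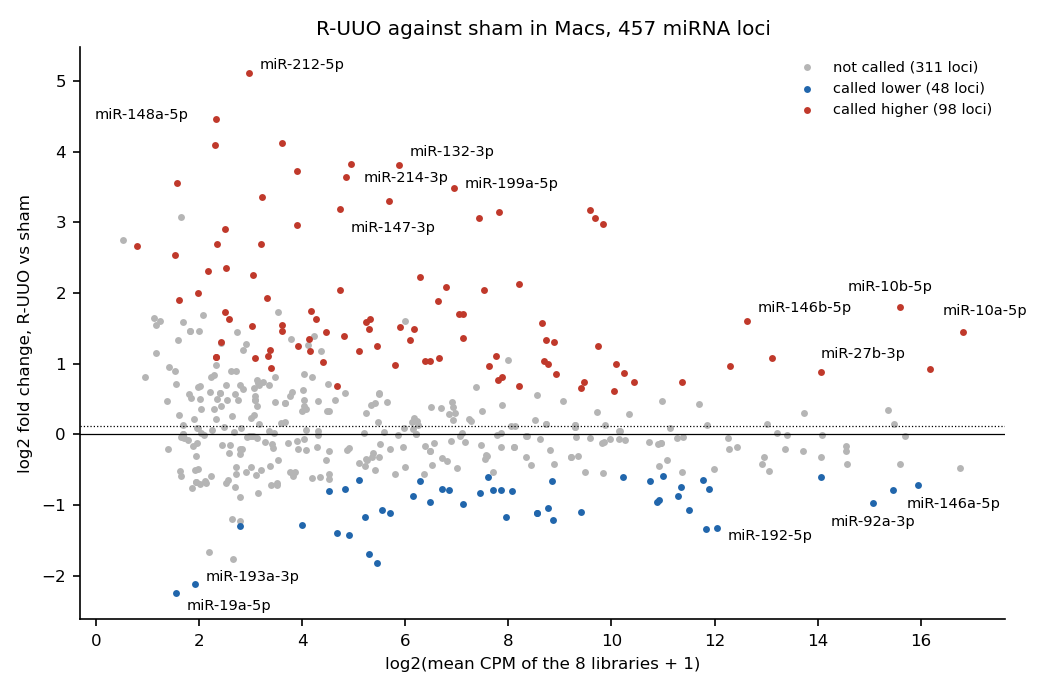
Each point is a miRNA locus in Macs. The x axis is the log2 of the mean CPM of the 8 libraries plus 1, and the y axis the log2 fold change of R-UUO against sham. Red points were called higher (98), blue points lower (48), grey points were not called (311), and the dotted line is the median of all loci, 0.12. Rises reach 5.11 and falls -2.25 on the log2 scale.

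The miR-212/132 locus held the steepest rise on the log2 scale, that of miR-212-5p. miR-132-3p stood at 9.14, 4.22, 2.56 and 13.2 CPM in sham and at 130, 94.98, 116 and 92.2 CPM in R-UUO. Every R-UUO library lay far above every sham library, at a mean of 108 ± 17.9 against 7.28 ± 4.85 CPM (SD, n = 4 each). The log2 fold change was 3.82 (SE 0.343, edgeR FDR = 1.32e-07). Its neighbor miR-212-3p went from 0 to 2.33 CPM in sham to 15.5 to 27.4 CPM in R-UUO, a log2 fold change of 4.13 (SE 0.476, edgeR FDR = 2.80e-06). Both 5p arms were called as well, so that 4 of 4 loci of this pair of hairpins rose. The 5p arms had at most 3 counts in each sham library, which makes their fitted changes (5.11 for miR-212-5p and 4.09 for miR-132-5p) depend on the prior count. From pooled counts, 5 in sham and 167 in R-UUO, the ratio for miR-212-5p was 39.9 with a 95% counting interval of 16.8 to 125.

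miR-132-3p was already at 63.5 CPM at UUO-2 and 95.2 CPM at UUO-7, with log2 fold changes against the same sham libraries of 3.05 and 3.63 (edgeR FDR = 3.0e-06 and 2.8e-07). Between UUO-7 and R-UUO the change was 0.18 with a 95% interval of -0.44 to 0.81. In PDGFR-β+ cells miR-132-3p rose as well, from 128 to 595 CPM on the scaling over all libraries, on which Macs went from 4.78 to 66.8 CPM. The rise in Macs amounts to 10.4% of the R-UUO level in PDGFR-β+ cells.

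The *Dnm3os* miRNAs rose by similar factors. miR-214-3p stood at 4.57, 5.15, 3.65 and 2.33 CPM in sham and at 69.1, 48.6, 54.2 and 51.3 CPM in R-UUO (log2 fold change 3.83, SE 0.265, edgeR FDR = 6.80e-09). It was at 7.65 CPM at UUO-2 and 55.2 CPM at UUO-7, and its change from UUO-7 to R-UUO was 0.02 (95% interval -0.45 to 0.48). miR-199a-3p of chromosome 1 rose from 113 to 177 CPM in sham to 844 to 1777 CPM in R-UUO (log2 fold change 3.18, SE 0.218, edgeR FDR = 6.80e-09). Compared with UUO-7 (577 CPM) it was also higher, by 1.27 on the log2 scale (edgeR FDR = 0.00038). Its mature sequence is the same as that of miR-199b-3p on chromosome 2, so the split of reads between both loci is uncertain, and miR-199b-3p rose by a like amount (3.06). All 4 loci of the miR-199a-2 and miR-214 hairpins rose, with changes between 3.18 and 3.83.

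All 9 mesenchymal markers tested were called higher, against 21.4% of all loci. Their median log2 fold change was 3.06 against 0.12 over all loci, and 8 were called without R-UUO replicate 5. The most abundant, miR-143-3p, stood at 7535, 2966, 7062 and 5141 CPM in sham and at 12718, 13344, 8730 and 13336 CPM in R-UUO (log2 fold change 1.08, SE 0.233, edgeR FDR = 0.00126), and was at 5969 CPM at UUO-7. miR-145a-5p, from the same precursor transcript, had a log2 fold change of 2.23 (edgeR FDR = 0.000358). PDGFR-β+ cells held the highest level of each of these markers. On the scaling over all libraries, the rise in Macs amounted to 4.28% of the PDGFR-β+ level for miR-199a-3p, 6.77% for miR-214-3p, 3.31% for miR-143-3p and 18.7% for miR-143-5p, which is the highest share of the 9. PDGFR-β+ cells themselves went from 3594 to 17801 CPM for miR-199a-3p, but from 365867 to 113256 CPM for miR-143-3p. In that fit over all libraries miR-143-3p was not called in Macs (1.02).

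The same comparison was made for every rise. Of the 98 loci called higher, PDGFR-β+ cells were the highest of the 4 cell types in R-UUO for 47, against 104 of all 457 loci, and Macs for 14. For 58 of the 98 the rise in Macs was under 15% of the R-UUO level of the highest other cell type. The 15% cut is descriptive, and neither the 58 nor the 14 has a value over all loci beside it. Of the 48 loci called lower, Macs had the highest sham level for 28, against 170 of all 457. The part of PDGFR-β+ or PT cell RNA in the Mac libraries was not tested. Among the rises with the highest R-UUO level in Macs were miR-147-3p, miR-223-5p, miR-501-3p and miR-21a-5p.

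miR-10a and miR-10b, encoded among the *Hox* genes, had the largest gains in CPM of all loci. miR-10a-5p stood at 56910, 55877, 73358 and 62520 CPM in sham and at 156729, 145791, 182962 and 193921 CPM in R-UUO, and became the most abundant of the called loci. Its log2 fold change was 1.45 (SE 0.157, edgeR FDR = 1.62e-06). At UUO-7 it was at 88375 CPM (0.51, FDR = 0.011, under the fold threshold), and it rose by a further 0.94 from UUO-7 to R-UUO (edgeR FDR = 0.000442). miR-10b-5p stood at 24425, 16649, 28043 and 18721 CPM in sham and at 53157, 59542, 76917 and 115755 CPM in R-UUO (1.80, SE 0.251, edgeR FDR = 2.45e-05), against 31753 CPM at UUO-7. For both, the reversed kidneys lay above the obstructed ones.

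Of the 7 miR-10 and miR-196 loci tested from the *Hox* clusters, 6 rose and none fell, with a median log2 fold change of 1.63. Over all loci 21.4% rose and 10.5% fell, with a median of 0.12. In turn without R-UUO replicates 2, 4 and 5 and sham replicates 2 and 3, 5 of the 7 were called. The list leaves out miR-615, in an intron of *Hoxc5*, of which both arms were called higher as well (miR-615-3p 9.64 to 41.6 CPM, 2.04, edgeR FDR = 1.13e-05). All 10 miR-10 and miR-196 loci counted, tested or not, took 7.37% to 9.40% of all counts in sham, 10.6% to 15.3% at UUO-7 and 18.1% to 29.6% in R-UUO. miR-196a-5p of chromosome 15, in an intron of *Hoxc5*, went from 109 ± 21.2 to 482 ± 162 CPM (SD, n = 4 each), and miR-196b-5p, in an intron of *Hoxa9*, from 71.0 ± 13.4 to 294 ± 63.9 CPM. The locus that was not called was miR-196a-5p of chromosome 11 (1.29, edgeR FDR = 0.0749), whose mature name is also that of the chromosome 15 locus. In every other sorted population miR-10a-5p was more abundant than in Macs: on the scaling over all libraries, R-UUO levels were 455812 CPM (ECs), 333725 CPM (PT cells) and 213072 CPM (PDGFR-β+ cells), against 104691 CPM in Macs. The rise in Macs amounts to 14.2% of the EC level.

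**Figure D2:**
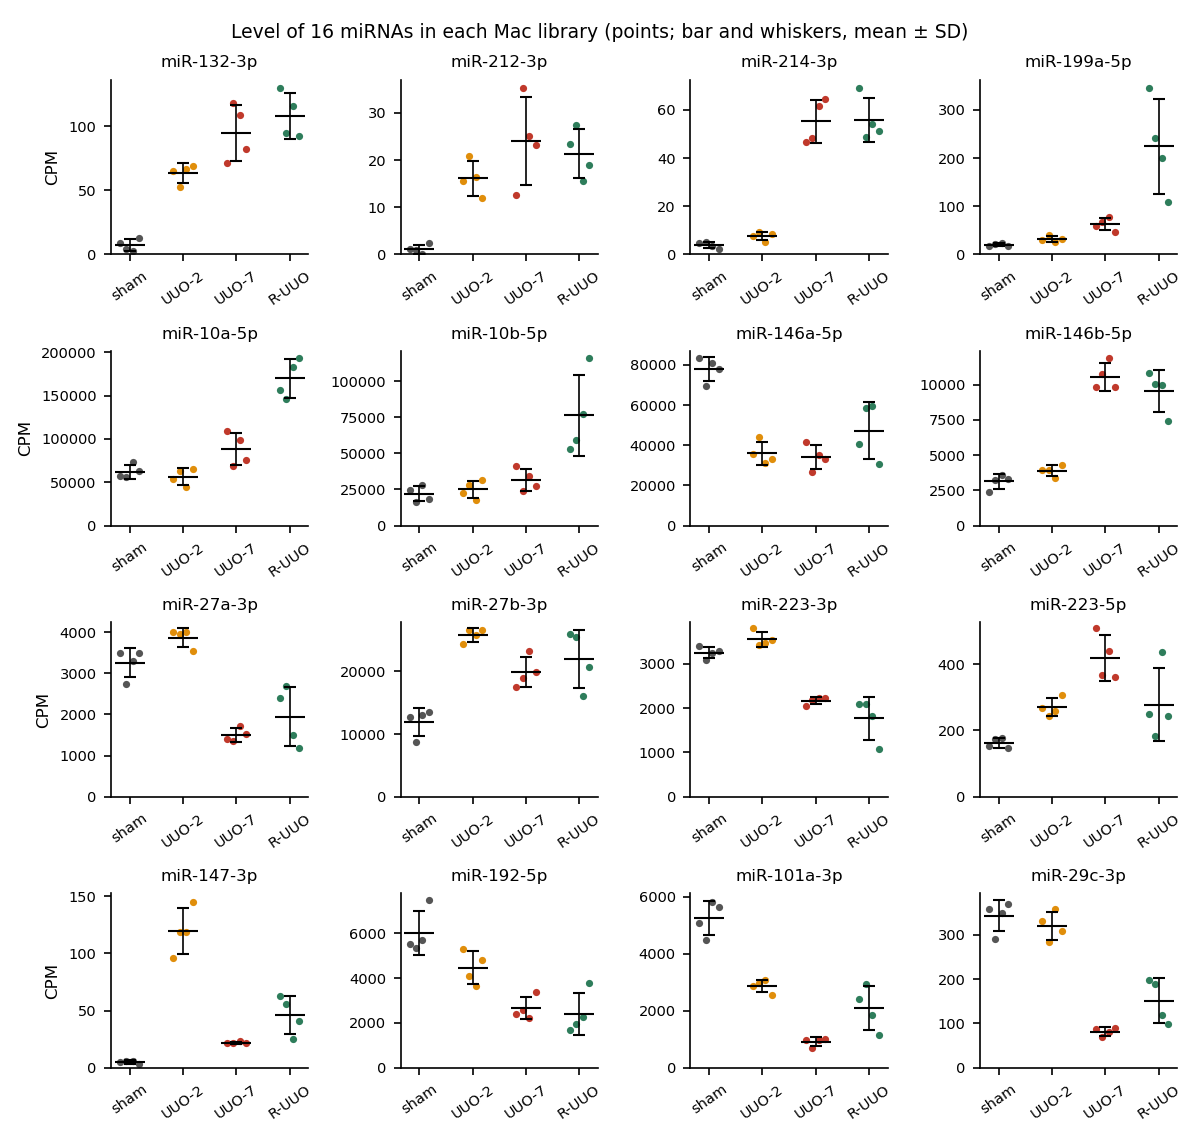
Level of 16 miRNAs in CPM (y axes from 0) in every Mac library, with the 4 conditions along the x axis. Points are libraries, 4 a condition, and the bar with whiskers is the mean ± SD. In R-UUO miR-132-3p and miR-146b-5p lie near their UUO-7 means, miR-10a-5p and miR-199a-5p lie above theirs, and miR-101a-3p and miR-29c-3p lie between UUO-7 and sham.

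Among the miRNAs known to be induced by NF-κB or Toll-like receptors, 10 of 16 loci were higher and 1 was lower (median log2 fold change 1.28). Over all loci, 21.4% were higher and 10.5% lower (median 0.12). Of the 10, 4 belong to the miR-212/132 locus. With library size only 9 were higher, and with any 1 library left out 8 or 9. The call of miR-9-5p of chromosome 13 (1.09, edgeR FDR = 0.0414) was lost without sham replicate 2, 3 or 4 or any R-UUO library. Its loci of the same mature sequence on chromosomes 3 and 7 were not called. miR-21a-5p, the second most abundant call, stood at 54696, 49998, 54599 and 44766 CPM in sham and at 133301, 115662, 83805 and 56701 CPM in R-UUO. Its groups did not overlap, though the R-UUO libraries spread more widely (0.93, SE 0.181, edgeR FDR = 0.000567), and it had been at 106310 CPM at UUO-2 and 72127 CPM at UUO-7. miR-147-3p, from an exon of *AA467197*, had a different course. It was at 3.11 to 6.21 CPM in sham, 120 CPM at UUO-2, 21.9 CPM at UUO-7 and 25.0 to 63.0 CPM in R-UUO, with a log2 fold change against sham of 3.19 in R-UUO (SE 0.285, edgeR FDR = 1.32e-07) and a change from UUO-7 to R-UUO of 1.09 (edgeR FDR = 0.0051). Its R-UUO level in Macs (28.4 CPM on the scaling over all libraries) exceeded that of ECs (11.9), PT cells (0.872) and PDGFR-β+ cells (1.62).

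miR-155-5p, a classic inflammatory miRNA, was not called (0.67, 95% interval 0.07 to 1.28, edgeR FDR = 0.0761). It stood at 60.2, 156, 149 and 145 CPM in sham and at 218, 132, 259 and 206 CPM in R-UUO, so the groups overlapped, and sham replicate 1 lay far below the rest. It had been called at UUO-7 (312 CPM, 1.29, edgeR FDR = 0.0013). miR-155-3p was called (2.90, edgeR FDR = 0.0367), with 2.46 to 21.9 CPM in R-UUO, and not without R-UUO replicate 4 (1.45, FDR = 0.32) or sham replicate 1, 3 or 4.

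The miR-146 pair split. miR-146a-5p, the more abundant member and a repressor of Toll-like receptor signaling, stood at 83448, 69538, 80975 and 77691 CPM in sham and at 40562, 58530, 59515 and 30641 CPM in R-UUO, where every library was lower than every sham library (-0.72, SE 0.183, edgeR FDR = 0.00481). miR-146b-5p stood at 2371, 3215, 3611 and 3327 CPM in sham and at 10787, 10058, 9985 and 7395 CPM in R-UUO (1.61, SE 0.145, edgeR FDR = 1.32e-07). The share of miR-146b-5p in their summed level went from 3.86% to 16.8%. The sum of both, which have the same seed, was 72753 to 85819 CPM in sham, 37459 to 51358 CPM at UUO-7 and 38036 to 69499 CPM in R-UUO. miR-146b-5p had reached 10561 CPM at UUO-7 and its change from there to R-UUO was small (-0.14, 95% interval -0.44 to 0.15). In R-UUO it was at 5912 CPM in Macs and 6144 CPM in PDGFR-β+ cells on the scaling over all libraries.

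Besides this one, 5 seeds had loci called in both directions. For the miR-27 seed, miR-27a-3p went from 2754 to 3506 CPM in sham to 1179 to 2697 CPM in R-UUO (-0.75, edgeR FDR = 0.00581, and 0.0547 when only the 8 libraries were fitted), while miR-27b-3p went from 8656 to 13513 CPM to 16044 to 25926 CPM (0.88, edgeR FDR = 0.000269). Their sum, of which miR-27b-3p is the larger part, was 15237 ± 2576 CPM in sham and 23963 ± 5246 CPM in R-UUO (SD, n = 4 each). For the miR-92 seed, miR-92a-3p of chromosome 14, a member of the miR-17-92 cluster, went from 44334, 44747, 46616 and 45292 CPM in sham to 18900, 18601, 28417 and 26812 CPM in R-UUO (-0.96, SE 0.125, edgeR FDR = 1.03e-05). miR-92b-3p went from 41.5 ± 10.5 to 155 ± 83.2 CPM (1.88, edgeR FDR = 6.64e-05) and stayed under 1% of the seed's sum, 0.567%. The sum of the 6 loci with this seed went from 52113 ± 600 to 27388 ± 5017 CPM.

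For the miR-99/100 seed, miR-99a-5p fell (-0.60, edgeR FDR = 0.00941, with a fold under 1.5 without R-UUO replicate 5) and miR-100-5p rose from 18.6 to 101 CPM in sham to 152 to 204 CPM in R-UUO (2.09, edgeR FDR = 0.00229), while the most abundant of the 3, miR-99b-5p, was not called. For the miR-15/16 seed, miR-15a-5p fell from 2529 ± 231 to 1324 ± 447 CPM (-0.93, edgeR FDR = 0.000826), miR-195a-5p and miR-497a-5p, which share a precursor, rose (1.04 and 1.49), and miR-16-5p, the bulk of this seed, was not called (-0.24, edgeR FDR = 0.238 for chromosome 14). For let-7, 1 of 11 loci with the shared seed rose (let-7b-5p, a call lost in 6 of the 8 fits without 1 library) and 1 fell (let-7e-5p), and the most abundant, let-7f-5p of chromosome X, was lower by less than 1.5-fold (-0.47, edgeR FDR = 0.000521). Across these 6 seeds the mean summed level was lower in R-UUO for 5 and higher for the miR-27 seed, given here as a description with no test. For the miR-15/16 seed the libraries overlapped, at 40571 to 48481 CPM in sham and 23286 to 44857 CPM in R-UUO. Those of the miR-99/100 seed overlapped too, at 5898 to 7586 CPM in sham and 5163 to 6643 CPM in R-UUO.

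Of 10 leukocyte miRNA loci 2 rose (1 without R-UUO replicate 4) and 2 fell, with a median of 0.23. Over all loci 21.4% rose and 10.5% fell, with a median of 0.12, and the 2 rises lie near that share. Within the miR-223 hairpin, miR-223-3p, the loaded arm in myeloid cells, went from 3397, 3080, 3238 and 3297 CPM in sham to 2088, 2102, 1820 and 1069 CPM in R-UUO (-0.88, SE 0.157, edgeR FDR = 0.000285). miR-223-5p went from 152, 175, 176 and 148 CPM to 250, 182, 437 and 243 CPM (0.77, SE 0.212, edgeR FDR = 0.00781). That rise was not called without R-UUO replicate 4, the highest library (0.32, FDR = 0.138), or without sham replicate 1 (0.62, FDR = 0.0544). Neither pair of groups overlapped. At UUO-7 miR-223-5p had been at 420 CPM and miR-223-3p at 2170 CPM. miR-142a-5p fell from 56678 ± 4014 to 32990 ± 7793 CPM (-0.78, edgeR FDR = 0.000175), while its other arm miR-142a-3p was not called (0.05, 95% interval -0.48 to 0.58). miR-342-3p (0.09, 95% interval -0.18 to 0.36) differed from sham by less than 1.5-fold.

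Of 108 hairpins with both arms tested, both arms were called in 15, in the same direction for 12 and in opposite directions for 3. Besides miR-223 these were miR-27a (5p 1.63, 3p -0.75) and miR-362 (5p 1.54, 3p -0.95). Besides that of miR-223-5p, the call of miR-362-5p was lost in 6 of the 8 fits that each leave out 1 library (FDR = 0.0567 to 0.286). miR-150-5p, best known from lymphocytes, rose from 145 to 256 CPM in sham to 233 to 1046 CPM in R-UUO (1.57, edgeR FDR = 0.00129) with overlapping groups. On the scaling over all libraries it was at 3172 CPM in R-UUO ECs, and the rise in Macs amounts to 7.46% of that level.

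The largest fall among abundant miRNAs was that of miR-101a-3p, a repressor of *Ezh2*. It stood at 5075, 4484, 5805 and 5642 CPM in sham and at 2408, 2932, 1842 and 1134 CPM in R-UUO (-1.34, SE 0.215, edgeR FDR = 0.000112). It had been lower still at UUO-7, 918 CPM, and was higher in R-UUO than at UUO-7 by 1.18 (edgeR FDR = 0.00096). Its other arm miR-101a-5p (-1.29) and miR-101b-3p (-1.04) were also called lower.

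miR-29 is known to repress collagen transcripts. Of 6 loci 3 fell and none rose, with a median log2 fold change of -0.61, where 10.5% of all loci fell and 21.4% rose. miR-29c-3p stood at 359, 291, 350 and 371 CPM in sham and at 199, 190, 118 and 99.8 CPM in R-UUO (-1.17, SE 0.194, edgeR FDR = 0.000148), against 81.9 CPM at UUO-7. miR-29a-3p fell from 4819 ± 317 to 2808 ± 564 CPM (-0.78, edgeR FDR = 0.000342), against 1397 CPM at UUO-7. From UUO-7 to R-UUO, miR-29c-3p rose by 0.90 and miR-29a-3p by 1.01 (edgeR FDR = 0.0031 and 0.00017). In R-UUO both lay above every UUO-7 value and below every sham value.

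miR-192-5p, the main proximal tubule marker, stood at 5508, 5364, 5705 and 7483 CPM in sham and at 1683, 1940, 2272 and 3765 CPM in R-UUO (-1.32, SE 0.216, edgeR FDR = 0.000131). It fell in the other 3 populations too, by 0.89 (ECs), 1.46 (PT cells) and 1.19 (PDGFR-β+ cells) on the log2 scale. miR-194-5p of chromosome 19, from the same precursor, fell by 0.78, and miR-215-5p was not called (-0.59, edgeR FDR = 0.327). PT cells held 118265 CPM of miR-192-5p in sham and 43030 CPM in R-UUO on the scaling over all libraries, against 3889 and 1480 CPM in Macs.

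Other falls with groups that did not overlap were those of miR-582-3p, in an intron of *Pde4d* (42.1 ± 7.80 to 15.8 ± 3.83 CPM, -1.42), miR-455-5p, in an intron of *Col27a1* (50.4 ± 10.6 to 22.1 ± 6.08 CPM, -1.17), and miR-3964 (36.0 ± 9.35 to 13.2 ± 6.05 CPM, -1.40). The steepest on the log2 scale were near the floor: miR-19a-5p went from 1.87 to 4.57 CPM in sham to 0 to 1.48 CPM in R-UUO (-2.25, edgeR FDR = 0.00814), and miR-193a-3p from 3.21 to 5.62 CPM to 0.430 to 1.90 CPM (-2.11, edgeR FDR = 0.00134).

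Of the 20 loci of the proliferation-linked clusters miR-17-92, miR-106a-363 and miR-106b-25, none rose (1 without sham replicate 1 or 2) and 6 fell, with a median of -0.34. Of all loci 21.4% rose and 10.5% fell. miR-25-3p went from 4277 ± 688 to 2736 ± 424 CPM (-0.64, edgeR FDR = 0.00181). miR-92a-3p and miR-25-3p were not called at UUO-7, where the log2 fold changes against sham were -0.16 and 0.16. From UUO-7 to R-UUO each fell by 0.80 (edgeR FDR = 0.00033 and 0.00096). miR-93-5p, of the same cluster as miR-25-3p, was not called (-0.36, edgeR FDR = 0.0695).

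**Figure D3:**
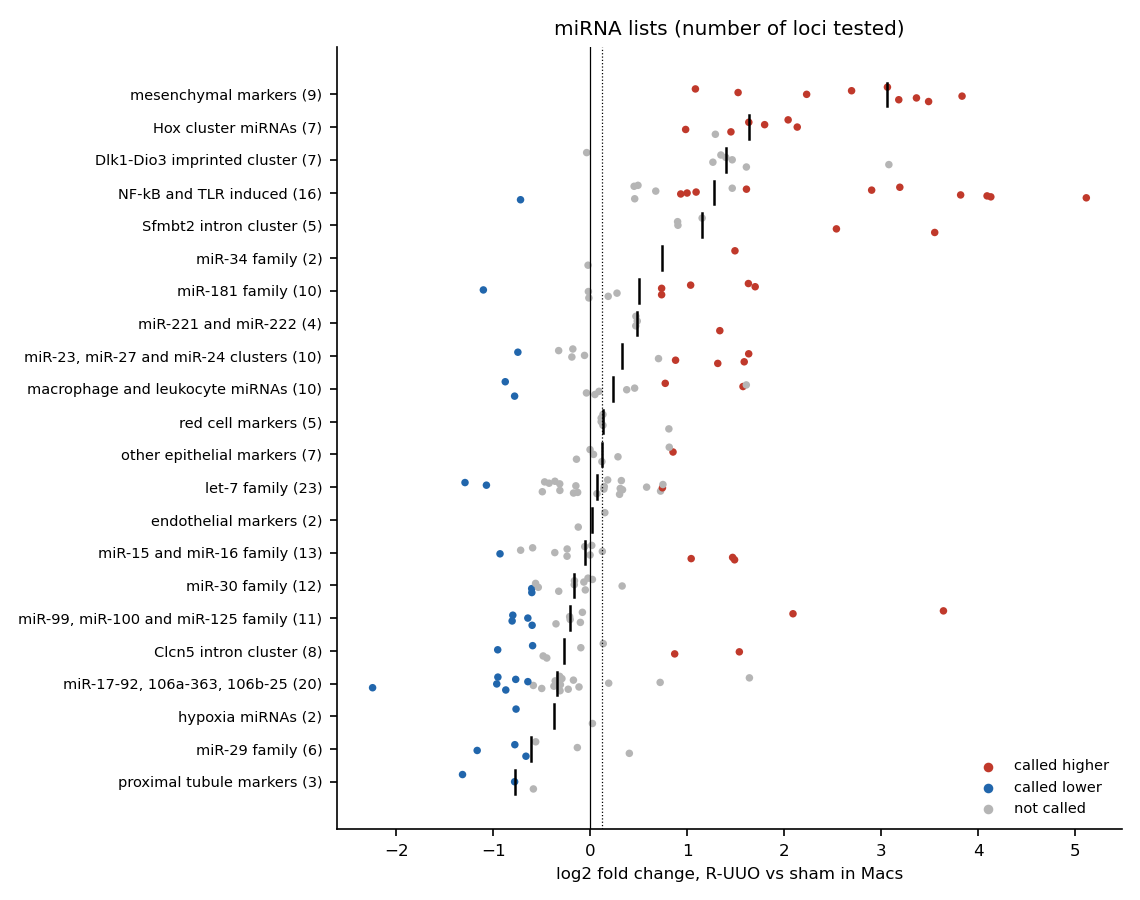
Log2 fold change of R-UUO against sham in Macs (x axis) for the loci of 22 miRNA lists, with the number of loci tested in parentheses. Points are loci (red higher, blue lower, grey not called), black bars are list medians, and the dotted line is the median of all loci, 0.12. The 9 mesenchymal markers lie between 1.08 and 3.83, and the 3 proximal tubule markers lie below 0.

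Lists with fewer calls are given by counts, to be read beside the shares over all loci, 21.4% higher and 10.5% lower. Of the miR-181 family 5 of 10 loci rose (3 without sham replicate 1, sham replicate 2 or R-UUO replicate 2) and 1 fell, with the abundant miR-181a-5p of chromosome 2 at 53389 and 52661 CPM (-0.02, 95% interval -0.27 to 0.23) and miR-181b-5p of chromosome 2 at 1992 ± 143 and 3316 ± 50.8 CPM (0.74, edgeR FDR = 6.64e-05). The miR-181b-5p change came under 1.5-fold without sham replicate 1 (0.58), sham replicate 2 (0.55) or R-UUO replicate 2 (0.58). Of the miR-23, miR-27 and miR-24 clusters 4 of 10 rose and 1 fell (2 without R-UUO replicate 2). The miR-30 family had 2 of 12 lower, which became 4 with library size only and 3 to 5 without any 1 library. The miR-15 and miR-16 family had 3 of 13 higher and 1 lower, near the shares over all loci. Without R-UUO replicate 1 it had 3 lower, and without sham replicate 2 it had 2 lower. Of the *Clcn5* intron cluster 2 of 8 rose and 2 fell. It had 1 higher without R-UUO replicate 1, 2 or 4 or sham replicate 1, 2 or 3, and 1 lower without R-UUO replicate 5. From the miR-99, miR-100 and miR-125 family 2 of 11 rose and 4 fell. let-7 had 1 of 23 higher and 2 lower, a split that went to 0 and 3 with library size only. Without 1 library the higher count was 0 in 6 of the 8 fits and the lower count ranged from 2 to 6, the 6 without R-UUO replicate 2. The *Sfmbt2* intron cluster had 2 of 5 higher, miR-221 and miR-222 1 of 4, and the miR-34 family 1 of 2. The hypoxia miRNA miR-210-3p fell from 34.6 ± 6.88 to 20.1 ± 7.88 CPM (-0.77, edgeR FDR = 0.0463), a call that was lost without R-UUO replicate 4 (FDR = 0.0754) and without sham replicate 1 (FDR = 0.0664). Of 7 other epithelial markers 1 rose, miR-200b-3p (0.85, edgeR FDR = 0.0127), with 1091 CPM in R-UUO replicate 5 and 345 to 586 CPM in the others, and it was not called without that replicate (0.34, FDR = 0.159) or without sham replicate 2, 3 or 4 (0.66, 0.68 and 0.68). None of 2 endothelial and 5 red cell markers was called.

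The 7 loci of the *Dlk1-Dio3* imprinted cluster had a median of 1.40 and none was called. Without sham replicate 4, 4 of the 7 were called higher, miR-127-3p among them (3.14, FDR = 0.021). miR-127-3p stood at 16.2, 2.81, 7.67 and 94.1 CPM in sham and at 159, 61.5, 26.2 and 134 CPM in R-UUO (1.61, SE 0.969, edgeR FDR = 0.212), and the groups overlapped.

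The course over injury and reversal differed among the named miRNAs. The UUO-2, UUO-7 and R-UUO changes share the sham libraries, and each is given as its own value. Over the 457 loci, 27.6% were called for UUO-2 (18.4% higher, 9.19% lower) and 43.1% for UUO-7 (26.3% higher, 16.8% lower). Between UUO-7 and R-UUO 19.9% were called, 58 loci higher in R-UUO (12.7%) and 33 lower (7.22%). Among the 10 steepest rises in R-UUO, median log2 fold changes against sham were 3.16 for UUO-2, 3.70 for UUO-7 and 3.83 for R-UUO. The 10 include miR-212-5p, miR-148a-5p, miR-132-5p and miR-467c-5p, which had at most 3 counts in each sham library. The fitted changes of these miRNAs depend on the prior count. Of these 10, chosen by their R-UUO values, 1 was called between UUO-7 and R-UUO, miR-199a-5p (63.1 CPM at UUO-7, 224 ± 98.0 CPM in R-UUO, 1.84, edgeR FDR = 0.00026). The 6 steepest rises and 6 steepest falls at UUO-7 were chosen by their UUO-7 values, so a smaller change in R-UUO is described and not tested. For the rises the median went from 4.25 at UUO-7 to 3.69 in R-UUO, and for the falls from -2.26 to -1.20. Of the rises, miR-467c-5p, miR-212-5p and miR-1983 had at most 3 counts in each sham library, so their fitted changes depend on the prior count. In R-UUO all 6 rises were called higher and 4 of the 6 falls were still called lower. Of the others, miR-29a-5p was at 2.21 CPM at UUO-7 and at 9.29 ± 1.52 CPM in R-UUO against 10.1 ± 2.31 CPM in sham. miR-33-5p, also not called in R-UUO, still had a log2 fold change of -1.22 against sham (edgeR FDR = 0.0659).

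**Figure D4:**
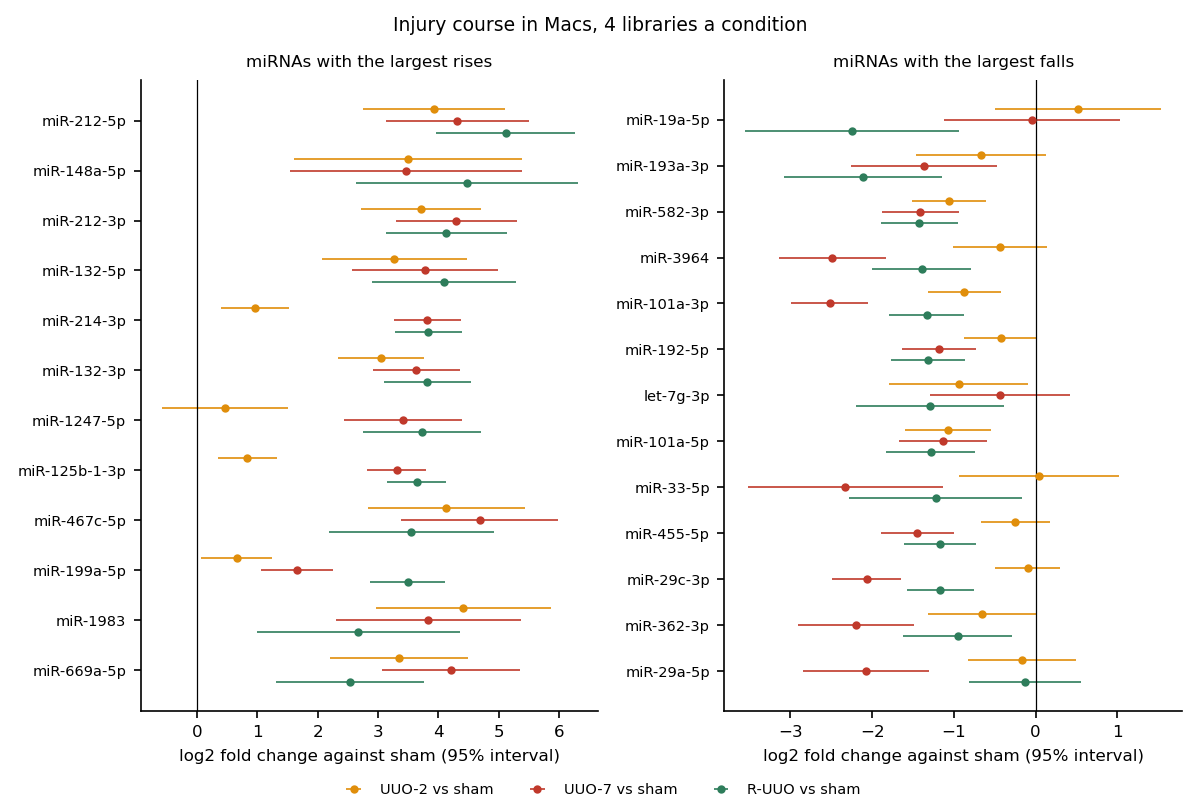
Log2 fold change against sham in Macs with its 95% interval (x axis) with UUO-2 in orange, UUO-7 in red and R-UUO in green, for the miRNAs with the largest rises (left) and falls (right) in R-UUO or at UUO-7. All comparisons share 4 sham libraries. miR-214-3p is as high in R-UUO (3.83) as at UUO-7 (3.82), while miR-101a-3p moves from -2.52 to -1.34 and miR-29a-5p from -2.08 to -0.13.

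Within the miR-99, miR-100 and miR-125 family, 3 abundant members that were lower at UUO-7 were not called against sham in R-UUO, while 4 of the 11 loci were called lower, among them miR-99a-5p (1443 CPM in sham, 951 CPM in R-UUO, -0.60). miR-125b-5p of chromosome 9 stood at 1254, 1308, 1205 and 1265 CPM in sham, fell to a mean of 652 CPM at UUO-7 and stood at 1195, 1264, 1322 and 972 CPM in R-UUO. Its change against sham was -0.08 in R-UUO (95% interval -0.37 to 0.20), and it rose by 0.87 from UUO-7 to R-UUO (edgeR FDR = 0.000331). miR-125a-5p (-0.21, 95% interval -0.58 to 0.15) and miR-99b-5p (-0.21, 95% interval -0.50 to 0.09), which share a precursor in an intron of *Spaca6*, also rose from UUO-7, by 0.94 and 0.85. let-7e-5p of the same precursor did not return and stayed lower in R-UUO (3932 ± 678 in sham, 1595 at UUO-7 and 1873 ± 736 CPM in R-UUO, -1.07, edgeR FDR = 0.000453).

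Some differences were called in R-UUO and neither at UUO-2 nor at UUO-7. miR-195a-5p was at 58.2 ± 0.727 CPM in sham, 51.1 CPM at UUO-7 and 120 ± 12.8 CPM in R-UUO, and rose from UUO-7 by 1.23 (edgeR FDR = 0.000132). miR-497a-5p of the same precursor rose from UUO-7 by 1.29, miR-181c-5p by 0.86 and miR-100-5p by 1.92. Their R-UUO levels in PDGFR-β+ cells were higher, and the rises in Macs amount to 4.01%, 4.04%, 5.35% and 3.31% of them. The miR-183/96/182 cluster on chromosome 6, known from sensory epithelia, also had 3 of 3 loci higher in R-UUO. Unlike the miRNAs above, miR-182-5p already lay above every sham value in its UUO-7 mean. It stood at 102 to 241 CPM in sham, 704 CPM at UUO-7 and 958 to 2232 CPM in R-UUO (3.06, SE 0.325, edgeR FDR = 1.44e-06). It rose in the 3 other populations too, most in PT cells, from 452 to 9166 CPM on the scaling over all libraries, where Macs went from 112 to 897 CPM.

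Whether a change in Macs differed from that in the other populations was tested as the change in Macs minus the mean change of ECs, PT cells and PDGFR-β+ cells, in a fit over all 63 libraries. Of 671 loci, 105 (15.6%) differed, 42 with a more positive change in Macs (6.26%) and 63 with a more negative change (9.39%). In the same fit R-UUO differed from sham at 21.3% of loci in Macs, 8.64% in ECs, 20.4% in PT cells and 38.5% in the PDGFR-β+ population. With library size only the split was 47 and 45, and the median difference of all loci moved from -0.08 to 0.07, and the share of more positive calls depends on the scaling. miR-132-3p rose more in Macs (difference 2.47, 95% interval 1.84 to 3.10, edgeR FDR = 1.59e-08), with changes of 3.75 (Macs), 0.40 (ECs), 1.21 (PT cells) and 2.22 (PDGFR-β+ cells). miR-214-3p (2.80), miR-199a-3p (2.57) and miR-212-3p (2.92) also had more positive changes in Macs.

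Several inflammatory miRNAs had a more negative change in Macs than in the mean of the other populations. miR-21a-5p had a difference of -2.01 (95% interval -2.62 to -1.41, edgeR FDR = 6.28e-07), with rises of 4.75 (PDGFR-β+ cells), 2.33 (ECs) and 1.59 (PT cells) against 0.88 in Macs. miR-155-5p had a difference of -2.36 (95% interval -3.18 to -1.53, edgeR FDR = 1.22e-05). It went from 2.94 to 106.2 CPM in PDGFR-β+ cells and stood at 82.3 and 126 CPM in Macs. miR-146b-5p had a difference of -0.81 (edgeR FDR = 0.00401), and miR-146a-5p of -1.79 (edgeR FDR = 2.03e-08), with a fall in Macs beside a rise of 2.39 in PDGFR-β+ cells. miR-582-3p fell in Macs but rose in ECs (1.11) and PDGFR-β+ cells (2.48), and had a difference of -2.43 (edgeR FDR = 4.02e-07). miR-92a-3p of chromosome 14 fell in Macs (-1.02) and was not called in the other 3 (difference -1.01, edgeR FDR = 1.00e-05).

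For miR-10a-5p the change in Macs (1.39) lay between those of PDGFR-β+ cells (0.14) and PT cells (2.41), and the difference was 0.35 (95% interval -0.29 to 0.99, edgeR FDR = 0.578). For miR-10b-5p the difference was 0.92 (edgeR FDR = 0.0628), and 1.05 and called with the mouse as a block (FDR = 0.0114). For miR-223-3p it was -1.47 (edgeR FDR = 0.0895), and -1.79 and called with the block (FDR = 0.0254). miR-29c-3p fell in Macs, PT cells and PDGFR-β+ cells, and miR-192-5p in all 4, with differences of 0.07 (95% interval -0.41 to 0.55) and -0.21 (95% interval -0.83 to 0.40).

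**Figure D5:**
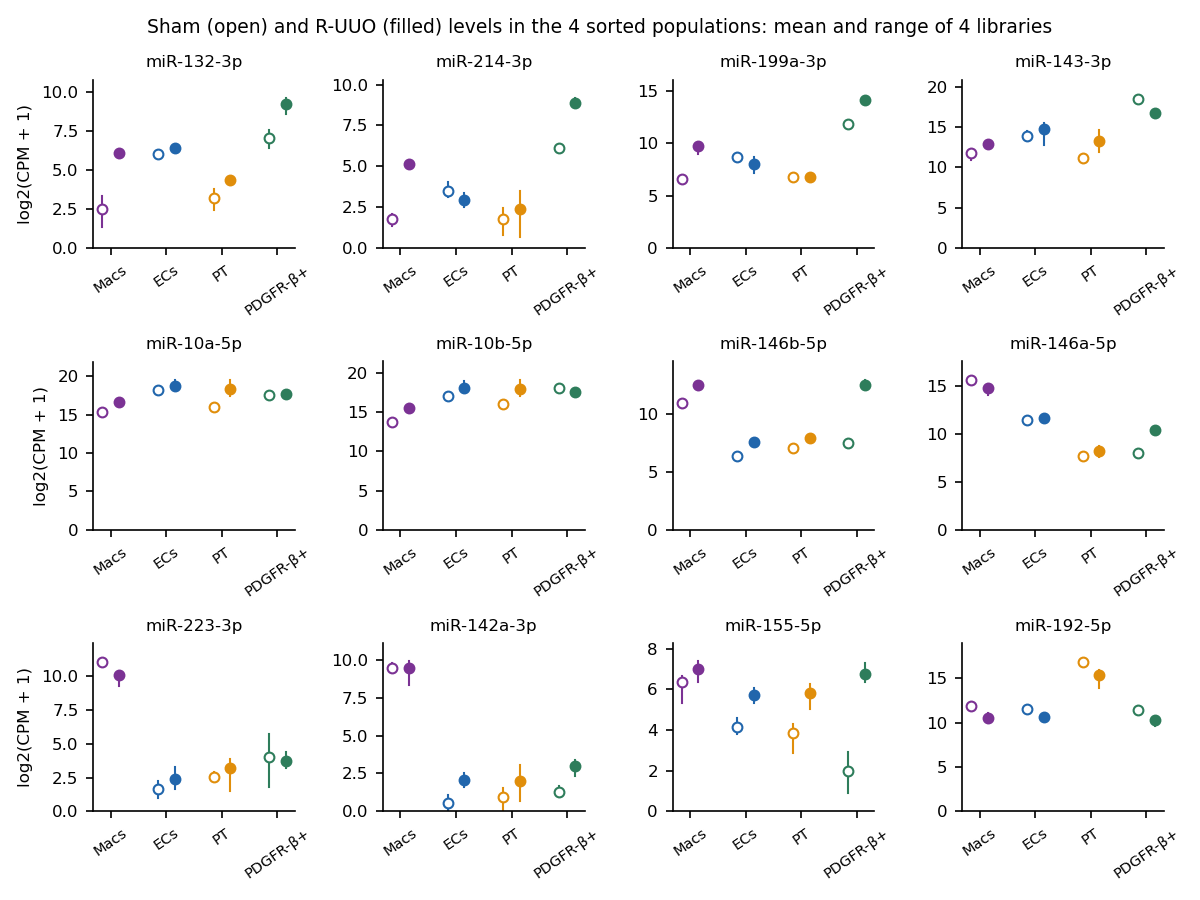
Level of 12 miRNAs as log2(CPM + 1), scaled over all 63 libraries, in Macs, ECs, PT cells and PDGFR-β+ cells. Open circles are sham means, filled circles R-UUO means, and lines span the 4 libraries. miR-214-3p and miR-199a-3p rise in Macs and in PDGFR-β+ cells, where their level is higher, while miR-223-3p and miR-142a-3p are highest in Macs in both conditions.

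By position, 248 of the 457 loci lay in an intron of a GENCODE gene on the same strand (48 higher, 25 lower), 84 in an exon (16 and 9) and 115 between genes (31 and 14), and for 10 the strand was not known. A RefSeq mature sequence was matched for 399 of the 457 loci, 78 of the 98 higher and 45 of the 48 lower.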

How the data were processed

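Small RNA of sorted cells was sequenced as paired-end reads of 150 bases. The authors trimmed the reads with Trim Galore 0.4.1 and cutadapt 1.1 to a Phred score of 20, used ShortStack, a wrapper of Bowtie, for alignment to GRCm38 and miRBase 22, and deposited raw counts per locus of a mature miRNA, without normalization. How reads that map to several loci were placed, and whether strand was used, is not given in the sources used here, so identical mature sequences are split uncertainly. Samples were grouped by their labels, and 1 mouse gives 1 library per cell type.

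The analysis used edgeR 4.0.16 under R 4.3.3: filterByExpr and TMM over the 16 Mac libraries, CPM from TMM-scaled library sizes, and the quasi-likelihood test with Benjamini-Hochberg adjustment over all 457 loci (FDR under 0.05, fold over 1.5). Cell types were compared over 63 libraries and 671 loci. SEs and 95% intervals come from the test statistic. The tests were checked on simulated data. DESeq2 1.42.0 and other settings were tried as alternatives. Between cell types of a mouse the deviations correlated at -0.108 to 0.254 (24 pairs, shared mouse from the labels). Positions come from GENCODE M21 and sequences from RefSeq. The named miRNAs are the 10 steepest non-overlapping calls in each direction, the 8 most abundant calls, the 5 largest cell type differences each way, the 6 steepest UUO-7 calls each way, and up to 4 abundant loci per list. Other miRNAs were named after their values were seen, such as miR-147-3p, miR-223-5p, miR-92b-3p and miR-100-5p. Members, lists and tests were chosen with earlier results of these data known. UUO-2 and UUO-7 libraries took part in the filter, the scaling and the estimate of spread, and their levels are given as reference. The whole-tissue data were not analysed here.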

Additional observations from a re-analysis of the deposited data

Results flagged for a closer look

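In 10 of 204 groups of 4 Mac libraries checked for the named loci, 1 library lay apart from the other 3 by Dixon's criterion, and chance alone gives about 1 in 20. In sham these were miR-192-5p in replicate 4 (7483 CPM, nearest 5705), miR-155-5p in replicate 1 (60.2 CPM), miR-342-3p in replicate 2 (2643 CPM), and miR-127-3p (94.1 CPM), miR-541-5p (23.1 CPM) and miR-467d-5p (7.00 CPM) in replicate 4. In R-UUO they were miR-30d-5p (18241 CPM), miR-532-3p (94.1 CPM) and miR-126a-3p (820.0 CPM) in replicate 5 and miR-143-3p in replicate 4 (8730 CPM).

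The change from sham to R-UUO in Macs differed from the mean change of ECs, PT cells and PDGFR-β+ cells most for 5 loci in each direction, by the edgeR quasi-likelihood test of the difference itself. The log2 difference was 7.64 for miR-5100 (FDR = 0.0061), 5.05 for miR-1247-3p (FDR = 0.00391), 4.88 for miR-5125 (FDR = 0.0154), 3.12 for miR-1247-5p (FDR = 0.000115) and 2.92 for miR-212-3p (FDR = 0.000168). It was -2.89 for miR-5114 (FDR = 0.0133), -2.77 for miR-5107-5p (FDR = 0.0174), -2.51 for miR-350-3p (FDR = 0.00391), -2.43 for miR-582-3p (FDR = 4.02e-07) and -2.36 for miR-155-5p (FDR = 1.22e-05). The values of miR-5100, miR-1247-3p, miR-5114 and miR-350-3p rest on a group at 0 in every library and depend on the prior count. miR-5100, miR-1247-3p and miR-5125 did not pass the filter in Macs, where their R-UUO means were 0.959, 1.64 and 0.840 CPM. miR-5107-5p stood at 414 CPM in sham Macs and at most at 0.937 CPM in the other sham populations. miR-1247-5p rose in Macs from 1.33 to 15.8 CPM and in PDGFR-β+ cells from 22.6 to 220 CPM and fell in PT cells from 111 to 38.7 CPM. Without sham Mac replicate 1 miR-5114 was no longer called, nor miR-5100 without R-UUO Mac replicate 5 (FDR = 0.113).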

How the results depend on the processing

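The 146 calls became 160 with DESeq2 or the likelihood ratio test, 149 with library size only and 148 with DESeq2's size factors. They became 172 without the filter, 129 with a stricter filter and 144 with identical loci counted once. The reported split of 98 higher and 48 lower became 87 and 62 with library size only, and 90 and 58 with DESeq2's size factors. With only the 8 libraries there were 70 higher and 36 lower. With 1 library left out there were 141 to 161 calls, 83 to 95 higher and 58 to 73 lower, the 73 without R-UUO replicate 2. Each of these 8 fits had fewer higher and more lower calls than the main fit. Their median log2 fold change of all loci was -0.05 to 0.05, against 0.12 in the main fit. Alternatives chosen after seeing the data gave 153 calls (loci of 1 mature miRNA summed), 127 (all libraries thinned to the smallest) and 124 (without the 2 shallowest R-UUO libraries). Of the 146 calls, 135 were shared with library size only and 138 with the other size factors. The replicate number as a replicate block gave 131 calls. It marks different mice in sham and R-UUO, whose deviations correlated at -0.285 to 0.117 over 3 pairs.

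The 105 cell type differences became 92 with library size only, 95 with DESeq2's size factors, 96 with scaling within each cell type, 92 without the filter, and 125 with DESeq2, which had 67 more positive where the reported count was 42. With the mouse as a replicate block there were 110, 100 of them shared. With 1 Mac library left out there were 68 to 99, 31 to 42 more positive and 35 to 63 more negative. The lowest total, 68, came without R-UUO replicate 5, and the lower calls fell to 41 without replicate 4. Among the named loci, 46 of 2048 comparisons with an alternative lost a call and 39 gained one, while in 1963 the outcome, called or not, was the same. The sign changed in 103 comparisons of 19 results, none called with or without the alternative (log2 fold changes of -0.24 to 0.29 that became -0.46 to 0.15, lowest FDR 0.132). Of all 146 calls, 112 held in each of the 8 fits without 1 library. Depth limits the loci near the floor.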
